A study of Mus musculus with 6 samples.

Results

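Transcripts of 10 autophagy and lysosome genes were examined in gastrocnemius muscle, the large calf muscle, of HrasG12V and wild-type (WT) mice. The genes were taken by symbol: Ulk1, Becn1, Atg7, Map1lc3a, Map1lc3b, Gabarapl1, Sqstm1, Bnip3, Ctsl and Tfeb. All 10 were among the 23997 gene symbols of every library, and all 10 were among the 13359 genes that could be compared, those with a mean of at least 0.5 FPKM. FPKM counts the fragments mapped to a gene per kilobase of transcript, here with the libraries scaled to each other. Muscle mRNA was sequenced from 6 untreated mice, 21 days old, with 1 library per mouse. The HrasG12V group held mice 2276, 2278 and 2279, of the line Caggs-Cre+/HrasG12V/+. Caggs-Cre is a Cre recombinase driven by the ubiquitous CAG promoter, so the floxed copy of Hras was switched to the mutant form throughout the body, under its own promoter and beside a normal copy. The WT group held littermates 2277, 2280 and 2281, labelled Hras+/+ and of the line Caggs-Cre-/HrasflG12V/+. These mice lacked Cre and still carried the floxed allele in its unrecombined form. All the mice shared a mixed SWR/J, 129S1/SvImJ and C57BL/6J background, and the labels give no sex or batch.

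Autophagy encloses cytoplasm in a double membrane, the autophagosome, and delivers it to the lysosome for digestion. The ULK1 kinase starts the process under the control of mTORC1 and AMPK, BECN1 helps to make the lipid signal on the growing membrane, and ATG7 drives the attachment of the ATG8 proteins, LC3 and GABARAP among them, to that membrane. Receptors such as SQSTM1 and BNIP3 tie cargo to the ATG8 proteins, cathepsins digest it, and the transcription factor TFEB switches on genes of the whole pathway. In skeletal muscle autophagy rises with fasting, denervation and other states of wasting, together with the ubiquitin ligases Fbxo32 (atrogin 1) and Trim63 (MuRF1), and FoxO factors act on both sets of genes. The level of an mRNA says nothing of how much material passes through the pathway.

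In these muscles none of the 10 transcripts passed the test for a genotype difference. With limma, a linear model fitted to all genes, none had an adjusted p below 0.05, against 0.0599% of all genes tested, and none had an unadjusted p below 0.05, against 10.2% of all genes. The larger differences lay among the HrasG12V mice. In the deposited values HrasG12V mouse 2278 had the lowest of the 6 values for 8 of the 10 genes, against 23.4% of all genes tested, and mice 2276 and 2279 were mostly at or above the WT level. With libraries rescaled to the same total FPKM, mice 2276 and 2278 were each the lowest for 4 genes, so this pattern depends on the scaling. The WT mice were closer to each other for all 10 genes, though they too lay apart for Bnip3 and Gabarapl1.

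Promoter sequences were read because the factors that drive these genes recognise short motifs, TFEB the E-box CACGTG and FoxO factors GTAAACA. RefSeq on GRCm38.p6 gave promoter windows for 8 of the 10 genes, each window running from 250 bases before a transcript start to 50 bases after it. Both strands were searched. The E-box was in windows of 3 of the 8 genes, Bnip3, Ctsl and Atg7, and in 7.15% of 32851 windows over all genes. In Ctsl and Atg7 the RefSeq start lay 370 and 27999 bases inside the gene as GENCODE vM21 draws it, so only the Bnip3 window is shown with its motif. The longer E-box TCACGTGA, which contains the short one, was in none of the 8 genes and in 0.974% of all windows. GTAAACA was also in none of them and in 3.65% of all windows. A match is a run of letters and not a site shown to be used, and a window without one says nothing of the factor. The 250 bases before the start are printed for Bnip3 and for Sqstm1, the cargo receptors whose HrasG12V values lay far apart, with the E-box in capitals. It began 108 bases before the Bnip3 start, and the Sqstm1 bases hold none.
Bnip3, chr7:138909507-138909756, minus strand: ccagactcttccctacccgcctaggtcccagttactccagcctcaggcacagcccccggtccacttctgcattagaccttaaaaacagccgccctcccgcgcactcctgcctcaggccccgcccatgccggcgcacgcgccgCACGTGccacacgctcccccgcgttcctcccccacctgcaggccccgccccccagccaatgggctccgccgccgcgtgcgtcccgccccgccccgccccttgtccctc
Sqstm1, chr11:50210821-50211070, minus strand: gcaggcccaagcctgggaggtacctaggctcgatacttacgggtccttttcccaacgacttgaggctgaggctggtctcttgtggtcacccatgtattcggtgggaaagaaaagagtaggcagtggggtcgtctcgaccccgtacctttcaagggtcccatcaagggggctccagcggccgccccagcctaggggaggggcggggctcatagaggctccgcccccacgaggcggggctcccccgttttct

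Mylpf, a myosin light chain of fast fibres, was at 10760 to 36114 FPKM in every library, as it should be in calf muscle. Other abundant muscle genes were listed at 0, Acta1, Myh4 and Atp2a1 in all 6 libraries and Ckm in all but mouse 2278. Tnnt3 was at 0 in HrasG12V mouse 2276 alone, and Myh1 in WT mice 2277 and 2280. A 0 in these files can therefore be a failed estimate. None of the 10 genes was listed at 0. Hras FPKM joins both alleles and so does not check the genotype: it ran from 36.0 to 51.8 in the WT group and from 16.0 to 58.8 in the HrasG12V group. The HrasG12V libraries also differed in transcripts of other cells. The summed FPKM of 8 B and T cell markers was 1.29 to 1.62 in WT mice and 2.32 in mouse 2276, but 92.4 in mouse 2278 and 81.9 in mouse 2279. The sum of 7 neutrophil markers was 2.64 to 5.65 in WT mice and 23.8, 137.6 and 55.0 in HrasG12V mice 2276, 2278 and 2279. None of these markers passed the adjusted test. At an unadjusted p below 0.05, 7 of the 8 and 6 of the 7 were higher in HrasG12V, against 5.18% of all genes tested. All HrasG12V mice lay above all WT mice for 4 of the 8 and for 6 of the 7, against 8.11% of all genes. Fat markers summed to 5.30 to 28.9 FPKM in WT mice and to 20.1, 113 and 67.2 FPKM in those HrasG12V mice, and endothelial markers to 139 to 171 FPKM in WT and 123 to 124 FPKM in HrasG12V. Fibroblast and tendon markers summed to 1416 to 2977 FPKM in WT and to 653, 2507 and 757 FPKM in those HrasG12V mice. Fast fibre markers summed to 90644 FPKM in mouse 2276 and to 36735 to 64748 FPKM in the other 5 libraries, zeros included. In bulk muscle, fewer cells of a type and less RNA per cell cannot be told apart.

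The genes are taken in the order in which their products act, with positions on GRCm38 from GENCODE vM21 and WT values always in the order of mice 2277, 2280 and 2281. Ulk1, the initiating kinase (chr5:110784488-110810097, minus strand), measured 23.7 FPKM in WT mouse 2277, 20.1 in mouse 2280 and 22.3 in mouse 2281. In HrasG12V mice 2276, 2278 and 2279 it measured 14.4, 11.0 and 23.6 FPKM. Mice 2276 and 2278 lay below every WT mouse, while mouse 2279 lay among them. Ulk1 had the lowest log2 fold change of the 10 genes, -0.50 with a standard error of 0.29 and a 95% interval from -1.20 to 0.19 (limma, adjusted p = 0.614). Without mouse 2279 the value was -0.80 with an unadjusted p below 0.05, as 11.5% of all genes then had. Without mouse 2278 it was -0.25, so single mice decide its size. The smallest adjusted p of Ulk1 among 16 alternatives was 0.286, with array weights.

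Becn1, the scaffold of the VPS34 lipid kinase complex (chr11:101285952-101302286, minus strand), was the steadiest of the 10 genes in the HrasG12V mice. It was at 25.7, 25.4 and 28.1 FPKM in the WT mice and at 30.8, 25.8 and 23.2 FPKM in HrasG12V mice 2276, 2278 and 2279. The mutant values lay on either side of the WT range, and mouse 2278 lay inside it. A log2 fold change of 0.00 came with a 95% interval from -0.42 to 0.42, which is the narrowest interval of the 10 together with that of Atg7.

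Atg7, the activating enzyme of ATG8 conjugation (chr6:114643097-114860614, plus strand), had the lowest level of the 10 genes and, with all mice, the highest log2 fold change. It was at 3.64, 3.55 and 3.29 FPKM in the WT mice and at 5.18, 3.58 and 4.27 FPKM in HrasG12V mice 2276, 2278 and 2279. Mice 2276 and 2279 were above every WT mouse and mouse 2278 lay within the WT range. The log2 fold change of 0.29 had a standard error of 0.18 and a 95% interval from -0.13 to 0.71 (limma, adjusted p = 0.625). Its place depends on single mice, since Atg7 was at 0.16 without mouse 2276, where Ctsl was at 0.17, and at 0.42 without mouse 2278, where Tfeb was at 0.46.

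The ATG8 transcripts were also divided among the HrasG12V mice. Map1lc3a, which encodes an LC3 protein (chr2:155276297-155278073, plus strand), was at 143, 153 and 185 FPKM in the WT mice and at 334, 61.7 and 121 FPKM in HrasG12V mice 2276, 2278 and 2279. Mouse 2276 was above every WT mouse and the other HrasG12V mice were below every WT mouse. The means were 160 ± 21.7 FPKM in WT and 172 ± 143 FPKM in HrasG12V (SD, n = 3 mice each). The log2 fold change, a difference of mean logs, had the opposite sign to the difference of these means. It was -0.23 with a 95% interval from -1.64 to 1.18, the widest of the 10 genes (limma, adjusted p = 0.931). It was -0.88 without mouse 2276 (limma, adjusted p = 0.142) and 0.34 without mouse 2278, so its direction turned when mouse 2278 was left out.

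Map1lc3b, the LC3 gene whose protein is the usual marker of autophagosomes (chr8:121590361-121598760, plus strand), was at 117, 111 and 129 FPKM in the WT mice. In HrasG12V mice 2276, 2278 and 2279 it was at 135, 66.2 and 148 FPKM. Mouse 2278 was below every WT mouse and the other HrasG12V mice were above every WT mouse. This gave a log2 fold change of -0.11 with a 95% interval from -0.93 to 0.71.

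Gabarapl1, of the GABARAP branch (chr6:129533160-129542346, plus strand), was the member of the ATG8 group in which the WT mice also lay apart. It was at 28.4, 22.5 and 17.5 FPKM in the WT mice and at 27.4, 14.8 and 26.8 FPKM in HrasG12V mice 2276, 2278 and 2279. Mouse 2278 was again the lowest of all, though the other HrasG12V mice lay inside the WT range. Here the log2 fold change was -0.01 with a 95% interval from -0.75 to 0.73.

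Of the ATG8 family, Gabarap and Gabarapl2 were measured besides the 3 genes above. Gabarap was at 107 to 116 FPKM in the WT mice and at 195, 82.2 and 119 FPKM in HrasG12V mice 2276, 2278 and 2279. Gabarapl2 was at 69.0 to 90.9 FPKM in the WT mice and at 104, 48.6 and 71.7 FPKM in those HrasG12V mice. Mouse 2278 was the lowest and mouse 2276 the highest for both. Of the summed FPKM of these 5 genes, Map1lc3a made up 32.3% ± 2.44 in WT and 29.8% ± 10.6 in HrasG12V, with 42.0% in mouse 2276, 22.6% in mouse 2278 and 24.9% in mouse 2279 (SD, n = 3 mice). Map1lc3b made up 24.0% ± 0.111 and 23.9% ± 6.75, so the mean shares of both LC3 genes differed by less than the spread between the HrasG12V mice.

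**Figure D1:**
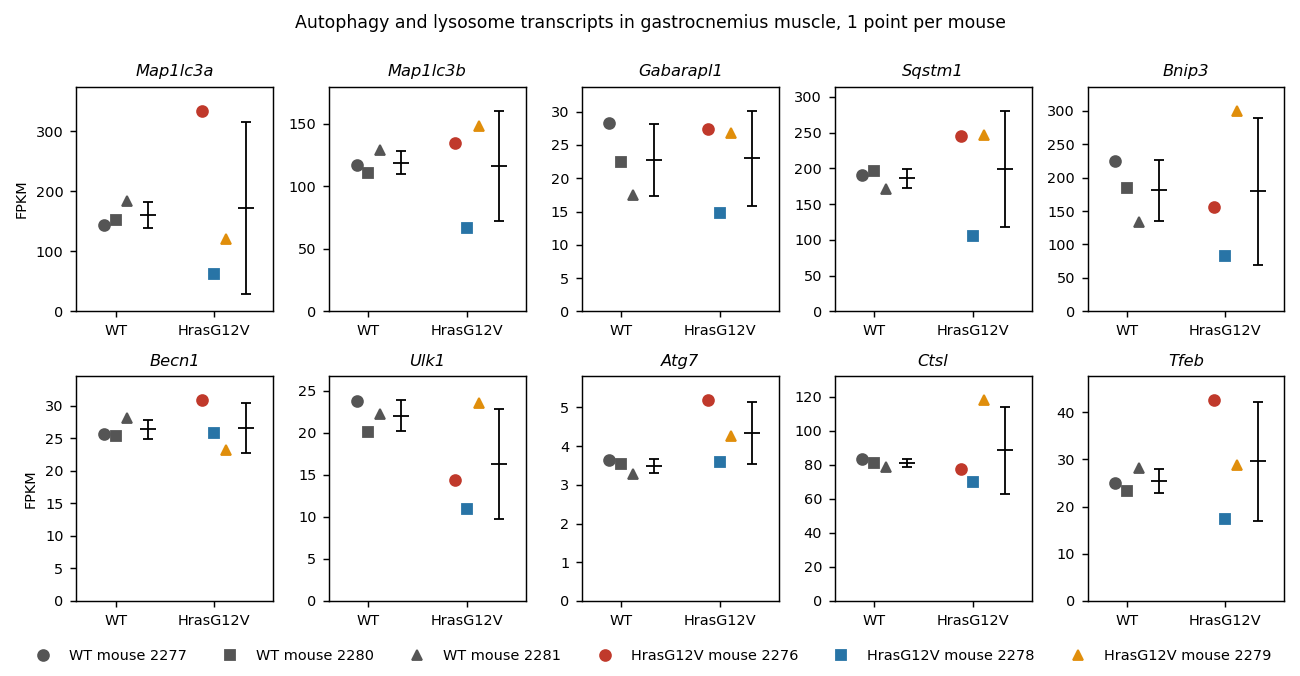
FPKM of each of the 10 genes (vertical axis, from 0, with its own scale in each panel) in 3 WT and 3 HrasG12V mice, with 1 symbol per mouse and the mean ± SD beside each group. The blue squares of mouse 2278 are the lowest points in 8 panels, at 61.7 FPKM for Map1lc3a and 106 FPKM for Sqstm1, while the WT points lie close together in most panels.

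Sqstm1, which encodes the p62 receptor that carries ubiquitin-tagged cargo (chr11:50199366-50210827, minus strand), had the highest WT level of the 10 genes. It was at 191, 196 and 171 FPKM in the WT mice and at 245, 106 and 247 FPKM in HrasG12V mice 2276, 2278 and 2279. Mouse 2278 lay below every WT mouse and both other HrasG12V mice lay above every WT mouse. The means were 186 ± 13.2 and 199 ± 81.0 FPKM (SD, n = 3 mice each), and the log2 fold change was 0.00 with a 95% interval from -0.90 to 0.90. A genotype difference of up to 1.87-fold in either direction was therefore within the interval.

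Bnip3, a receptor on mitochondria (chr7:138890836-138909519, minus strand), was at 225, 184 and 134 FPKM in the WT mice and at 156, 83.0 and 300.0 FPKM in HrasG12V mice 2276, 2278 and 2279. Mouse 2278 was the lowest and mouse 2279 the highest of the 6, and mouse 2276 lay inside the WT range. The log2 fold change was -0.17 with a standard error of 0.49. The WT mice themselves had an SD of 0.38 in log2 units, the largest of the 10 genes.

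Ctsl, which encodes the lysosomal protease cathepsin L (chr13:64359337-64370890, minus strand), had the closest WT values of the 10 genes, at 83.2, 81.0 and 78.6 FPKM. It was at 77.7, 70.0 and 118 FPKM in HrasG12V mice 2276, 2278 and 2279. Mouse 2279 stood above all the others, and mice 2276 and 2278 were below every WT mouse, mouse 2276 by less than 1 FPKM. On the log2 scale the difference was 0.09 with a 95% interval from -0.51 to 0.69. Among 12 cathepsin genes Ctsl made up 12.0% ± 0.546 of the summed FPKM in WT, and 10.2%, 12.6% and 20.6% in HrasG12V mice 2276, 2278 and 2279.

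Tfeb, the transcription factor of lysosome and autophagy genes (chr17:47737030-47792419, plus strand), was at 25.1, 23.2 and 28.3 FPKM in the WT mice and at 42.5, 17.4 and 28.9 FPKM in HrasG12V mice 2276, 2278 and 2279. Mouse 2278 was below every WT mouse, mouse 2276 was well above them, and mouse 2279 was just above the highest. The fold change on the log2 scale was 0.12 with a 95% interval from -0.66 to 0.91. TFEB is known to be set mainly by where the protein lies in the cell, which FPKM does not show.

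**Figure D2:**
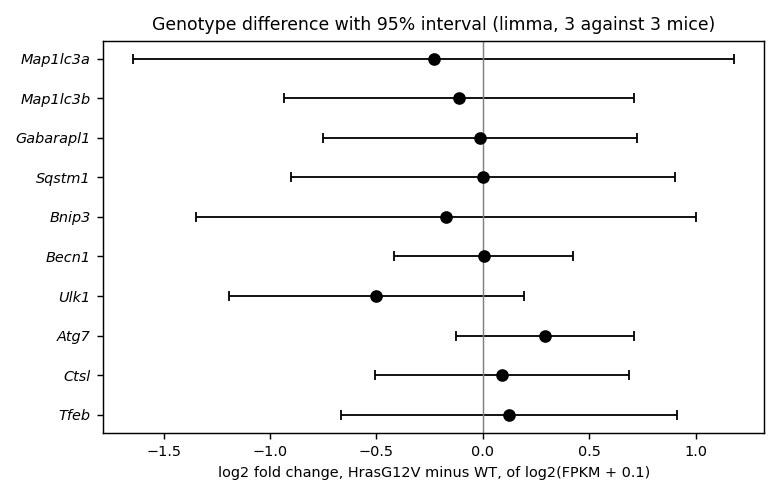
Log2 fold change of each of the 10 genes, HrasG12V minus WT, of log2(FPKM + 0.1) (horizontal axis), with the 95% interval from limma over 3 against 3 mice as bars. Every interval crosses 0, from the lowest point, Ulk1 at -0.50, to the highest, Atg7 at 0.29.

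Counted over the 10 genes, 5 fold changes were above 0 and 5 below it, with a median of -0.01 against -0.03 over all genes tested. This median depends on single mice. It was 0.28 without mouse 2278, -0.17 without mouse 2276, -0.15 without mouse 2279 and -0.27 with array weights. Over all genes tested the medians in those settings were 0.006, -0.072, -0.002 and -0.068. The groups overlapped for each of the 10, whereas all HrasG12V mice lay above all WT mice for 8.11% of all genes and below them for 10.4%. With a mouse left out groups overlap less often: without mouse 2278, 4 of the 10 did not overlap against 29.3% of all genes. The counts were 1 without mouse 2276, 2 without mouse 2279 and 1 without WT mouse 2277, against 48.2%, 30.7% and 23% of all genes. Adjusted p-values ran from 0.614 for Ulk1 to 0.999 for Sqstm1. A p of this size does not show that the genotypes were alike, since only the intervals of Becn1, Atg7 and Ctsl stayed within a fold of 1.64 either way. In WT muscle the genes ordered as Sqstm1, Bnip3, Map1lc3a, Map1lc3b, Ctsl, Becn1, Tfeb, Gabarapl1, Ulk1 and Atg7 by mean FPKM, a unit per length of transcript. Neighbours overlapped between WT mice from Sqstm1 to Bnip3 to Map1lc3a and from Becn1 to Tfeb to Gabarapl1 to Ulk1.

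The spread between mice was larger in HrasG12V than in WT for all 10 genes, as the SD of log2(FPKM + 0.1). The same held for 86.8% of all genes tested, so this count is close to the background. The size of the spread was larger, with a median SD of 0.59 log2 units over the 10 genes in HrasG12V mice and 0.12 in WT mice, where all genes had medians of 0.42 and 0.13. No test was made of these spreads. Without mouse 2278 the SD was larger in HrasG12V for 7 of the 10 genes, against 79.6% of all genes.

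Mouse 2278 gave the lowest of the 6 values for 8 of the 10 genes, against 23.4% of all genes tested. The exceptions were Becn1, lowest in mouse 2279, and Atg7, lowest in WT mouse 2281. Mouse 2276 or 2279 gave the highest value for 8 genes, 4 each, against 53% of all genes. The exceptions here were Gabarapl1 and Ulk1, highest in WT mouse 2277. Over the 10 genes the median difference from the WT mean was 0.26 log2 units in mouse 2276, -0.70 in mouse 2278 and 0.27 in mouse 2279, and within 0.05 of 0 in each WT mouse. Over all genes tested these medians were 0.04, -0.08 and -0.04.

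The ordering of the mutant mice depends on how libraries are scaled. The summed FPKM of all genes was 814013 in mouse 2276 and 429351 and 413020 in mice 2278 and 2279, against 491045 to 547122 in WT mice. These totals lack the muscle genes listed at 0, which were not the same in each library. Ckm was at 7165 FPKM in mouse 2278 and at 0 elsewhere, and Tnnt3 was at 0 in mouse 2276 alone. After division by these totals mouse 2279 was the highest for 8 genes, and mouse 2278 was the lowest for 4, against 7.16% of all genes. The median difference from WT was then -0.38 in mouse 2276, -0.43 in mouse 2278 and 0.60 in mouse 2279. Quantile normalization and median centring left 8 genes lowest in mouse 2278, as did the deposited values. Quantile normalization put the median of mouse 2276 at -0.04 and that of mouse 2279 at 0.37, with mouse 2279 the highest for 6 genes and mouse 2276 for 3, so the place of mouse 2276 against WT depends on the scaling.

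Transcripts of other cells were set beside the 10 genes. Mice 2278 and 2279 both had all 8 B and T cell markers above every WT mouse, Cd79a at 26.4 and 20.9 FPKM against at most 0.37 FPKM in WT and Cd3e at 6.26 and 9.09 FPKM against at most 0.30 FPKM. The 10 genes were mostly low in mouse 2278 and mostly high in mouse 2279. Macrophage markers, which could bring lysosomal transcripts of their own, summed to 88.5 to 106 FPKM over 11 genes in WT mice and to 116, 248 and 132 FPKM in HrasG12V mice 2276, 2278 and 2279. All HrasG12V mice lay above all WT mice for 1 of the 10 that could be compared, against 8.11% of all genes. Of these 10 markers, 8 had a log2 fold change above 0, against 6230 of the 13359 genes tested. The 10 values ran up to 1.69 for Mpeg1, with a median of 0.46 and none past the adjusted limit. Adgre1, listed under its older symbol Emr1, was at 2.01 to 2.76 FPKM in WT and at 1.31, 3.71 and 1.57 FPKM in those mice. The macrophage and neutrophil sums were highest in mouse 2278, the mouse in which most of the 10 genes were lowest. The part of these cells in the values of the 10 genes was not tested.

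The atrophy ubiquitin ligases, which share regulators with autophagy genes in muscle, were set beside the 10 genes. Fbxo32 was at 43.8, 38.0 and 22.8 FPKM in the WT mice and at 26.7, 10.9 and 102 FPKM in HrasG12V mice 2276, 2278 and 2279. Trim63 was at 95.8, 110 and 68.4 FPKM in the WT mice and at 104, 66.7 and 145 FPKM in those HrasG12V mice. In the deposited values both were lowest in mouse 2278 and highest in mouse 2279, as were Map1lc3b, Sqstm1, Bnip3 and Ctsl. The share of all genes in this order was not counted. With equal total FPKM mouse 2278 was the lowest for 4 of the 10 genes instead of 8, so the order depends on the scaling. Shared regulation was not tested. Neither passed the genotype test (limma, adjusted p = 0.979 for Fbxo32 and 0.917 for Trim63).

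**Figure D3:**
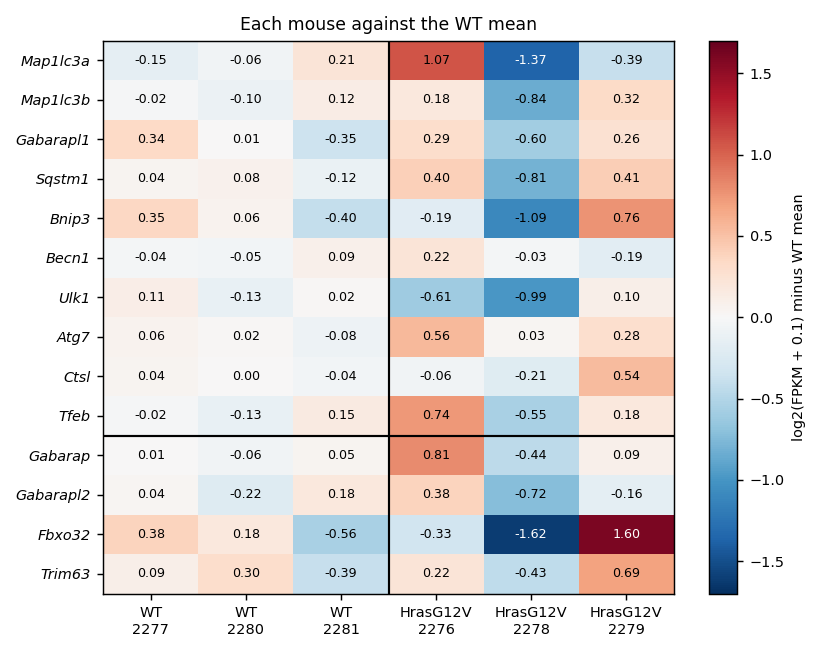
Difference of each mouse from the WT mean in log2(FPKM + 0.1) (colour and printed value) for the 10 genes, and below the line for the other ATG8 genes and the atrophy ubiquitin ligases, with mice in columns. Above the line the column of mouse 2278 is mostly blue, down to -1.37 for Map1lc3a, while mice 2276 and 2279 are mostly red, up to 1.07 for Map1lc3a and 0.76 for Bnip3, and below it Fbxo32 lies farther out, with the darkest blue in mouse 2278 and the darkest red in mouse 2279.

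Other genes of the pathway were taken from 13 lists, from initiation to the lysosome, with 153 genes besides the 10, of which 152 could be compared. None passed the adjusted limit of 0.05 in limma. At an unadjusted p below 0.05 there were 7 genes higher in HrasG12V and 5 lower, 4.61% and 3.29% of the 152, against 5.18% and 4.99% of all genes tested. The genotypes did not overlap for 9 genes higher and 15 lower, 5.92% and 9.87%. The last 2 shares stand against 8.11% and 10.4% of all genes, so each of the 4 was below its background with all mice. The 12 genes at an unadjusted p below 0.05 became 3, 6 and 3 without WT mice 2277, 2280 and 2281, and 3 with libraries rescaled to the same total, where 4.54% to 5.33% of all genes passed. They became 31 without mouse 2276, 20.4% against 29.8% of all genes, and 8 without mouse 2278, 5.26% against 9.69%. Without mouse 2279 there were 23, and this share of 15.1% was above the 11.5% of all genes. The median log2 fold change of the 152 genes was -0.07. Mouse 2278 was the lowest of the 6 for 64 of them, 42.1% against 23.4% of all genes. With libraries rescaled to the same total it was the lowest for 17, 11.2% against 7.16%. Mouse 2276 or 2279 was the highest for 82, a share of 53.9% near the 53% of all genes.

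Around Ulk1, 4 of the 5 genes of its kinase complex, Ulk1 included, had a log2 fold change below 0, against 7129 of the 13359 genes tested. None of the 5 passed the adjusted limit. Ulk2, its close relative, was at 39.1, 37.5 and 44.5 FPKM in the WT mice and at 21.4, 23.3 and 34.7 FPKM in HrasG12V mice 2276, 2278 and 2279. Rb1cc1, which encodes the FIP200 scaffold, was at 18.7 to 20.6 FPKM in WT and at 9.48, 12.6 and 17.4 FPKM in those HrasG12V mice. The genotypes did not overlap for either, and all HrasG12V mice lay below all WT mice for 10.4% of all genes. The log2 fold changes of Ulk2 and Rb1cc1 were -0.64 and -0.62 (limma, adjusted p = 0.469 and 0.481). Atg13 had a log2 fold change of -0.20 and Atg101 of 0.02, and the median of the 5 genes was -0.50. Rescaled to the same total FPKM, neither Ulk2 nor Rb1cc1 had an unadjusted p below 0.05. Of the 16 alternatives it was below 0.05 in 9 for Ulk2 and in 8 for Rb1cc1. Among the fits that left out a mouse, it was so for both only without mouse 2279.

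In the other early steps the values lay closer to 0. The 8 genes of the BECN1 and VPS34 complex had a median of -0.02, from -0.12 for Pik3r4 to 0.24 for Uvrag. The 9 genes tested for ATG9, ATG2 and WIPI membrane supply had a median of -0.13, from Atg9a at -0.46 to Wipi1 at 0.09. Atg7 belonged to 11 conjugation enzymes with a median of -0.01, from Atg4d at -0.28 to Atg16l2 at 0.39. Atg16l2, a homologue of the scaffold that places ATG8 on membranes, was at 3.04 to 3.51 FPKM in WT and 3.66 to 4.84 FPKM in HrasG12V mice, without overlap (limma, adjusted p = 0.491). Its unadjusted p was below 0.05 with all mice and in 3 of the 16 alternatives.

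Among the 10 cargo receptors, Sqstm1 and Bnip3 included, no gene had an unadjusted p below 0.05. The values ran from -0.42 for Ncoa4, the ferritin receptor, to 0.11 for Bnip3l, with a median of -0.06. The 12 genes of autophagosome to lysosome fusion had a median of -0.07, from Rab7, the GTPase of late endosomes, at -0.53 to Vamp8 at 0.40. Rab7 was at 249 to 314 FPKM in WT and 193 to 209 FPKM in HrasG12V mice without overlap, with an unadjusted p above 0.05. Beside Tfeb, the list of its family and FoxO factors had a median of -0.27 over 6 genes, from Foxo3 at -0.75 to Tfe3 at 0.18. Foxo3 was at 8.38 to 8.79 FPKM in WT and at 2.73, 4.87 and 9.51 FPKM in HrasG12V mice 2276, 2278 and 2279, so mouse 2279 again stood apart from the other mutant mice.

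The cathepsins beside Ctsl pointed in both directions. Ctss, cathepsin S of antigen-presenting cells, was at 4.97, 4.79 and 3.14 FPKM in the WT mice and at 4.31, 21.9 and 18.8 FPKM in HrasG12V mice 2276, 2278 and 2279. Mice 2278 and 2279 also had the highest sums of lymphocyte, macrophage, neutrophil and fat markers. Which cells these transcripts came from was not tested. The mean of logs of Ctss was 2.83-fold higher in HrasG12V. The log2 fold change ran from 1.08 to 2.24 over the 16 alternatives, with an unadjusted p below 0.05 in 8 of them. It passed the adjusted limit without mouse 2276 (limma, adjusted p = 0.00886) and with array weights (adjusted p = 0.0236), and not without any other mouse. In those settings 9.66% and 4.28% of all genes passed that limit, against 0.0599% as reported. Lgmn, the asparaginyl endopeptidase that processes cathepsins, was at 19.4 to 25.1 FPKM in WT and at 46.0, 38.2 and 25.0 FPKM in those HrasG12V mice, with a log2 fold change of 0.66. Ctsz was at 19.3 to 24.0 FPKM in WT and 27.1 to 29.5 FPKM in HrasG12V mice, without overlap and with a log2 fold change of 0.40. All 3 had an unadjusted p below 0.05, and the adjusted p was 0.488 for Ctss and for Ctsz and 0.483 for Lgmn (limma). The unadjusted p stayed below 0.05 in 12 of the 16 alternatives for Ctsz and in 9 for Lgmn, for which it did so in 1 of the 6 that leave out a mouse.

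The remaining cathepsins had unadjusted p above 0.05. Ctsd, the most abundant, was at 331, 327 and 346 FPKM in WT and at 400, 209 and 225 FPKM in HrasG12V mice 2276, 2278 and 2279. Ctsb was at 119 to 133 FPKM in WT and at 116, 94.5 and 81.2 FPKM in those mice, below every WT mouse. Their log2 fold changes were -0.33 and -0.38. The fold changes of Ctsa, Ctsc, Ctsf, Ctsh and Ctso lay between -0.28 and 0.37. Ctsk, the collagen-degrading cathepsin, had the lowest at -0.87, and the median of the 12 was 0.05.

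Of 28 other lysosomal hydrolases and activators, Galns, which degrades keratan sulphate, was highest at 0.87 and Ids, which degrades heparan and dermatan sulphate, lowest at -0.64. Galns was at 0.913 to 1.33 FPKM in WT and 1.78 to 2.49 FPKM in HrasG12V mice, without overlap (limma, adjusted p = 0.382), and its unadjusted p stayed below 0.05 in each of the 16 alternatives. Of 12 lysosomal membrane and cholesterol transport genes, Scarb2, which encodes LIMP2, was at 44.8 to 50.2 FPKM in WT and 31.1 to 35.8 FPKM in HrasG12V mice. Its log2 fold change was -0.53 (limma, adjusted p = 0.433), and its unadjusted p was below 0.05 in 15 of the 16 alternatives, all but equal total FPKM. Npc1 was the lowest of that list at -0.59 and Npc2, its soluble partner in cholesterol export, the highest at 0.36 (limma, adjusted p = 0.483).

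Of 17 subunits of the vacuolar proton pump, which acidifies the lysosome, Tcirg1 was highest and Atp6v0c lowest. Tcirg1, the subunit of osteoclasts and immune cells, was at 5.02, 5.40 and 4.25 FPKM in WT and at 7.16, 7.73 and 9.28 FPKM in HrasG12V mice 2276, 2278 and 2279. Its log2 fold change of 0.71 had the smallest p of the 152 genes (limma, adjusted p = 0.371). The unadjusted p of Tcirg1 was below 0.05 in 15 of the 16 alternatives, the exception being equal total FPKM. Atp6v0c was at 116 to 183 FPKM in WT and at 115, 28.9 and 139 FPKM in those mice, so that mouse 2278 alone was far below the others, and its log2 fold change was -0.85.

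Among 27 regulators of mTORC1 and AMPK, which act on ULK1 and TFEB, the median was -0.18. Rragd, a Rag GTPase that places mTORC1 on the lysosome, was at 71.6, 66.3 and 94.9 FPKM in WT and at 44.1, 46.7 and 58.7 FPKM in HrasG12V mice 2276, 2278 and 2279. Prkab2, the AMPK beta subunit abundant in muscle, was at 75.6 to 112 FPKM in WT and 50.3 to 63.5 FPKM in HrasG12V mice. Neither overlapped between genotypes, with log2 fold changes of -0.63 and -0.65 (limma, adjusted p = 0.469 and 0.453). Fnip1 had the lowest value of the list, -0.73, and Prkab1, the other AMPK beta subunit, the highest, 0.28.

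**Figure D4:**
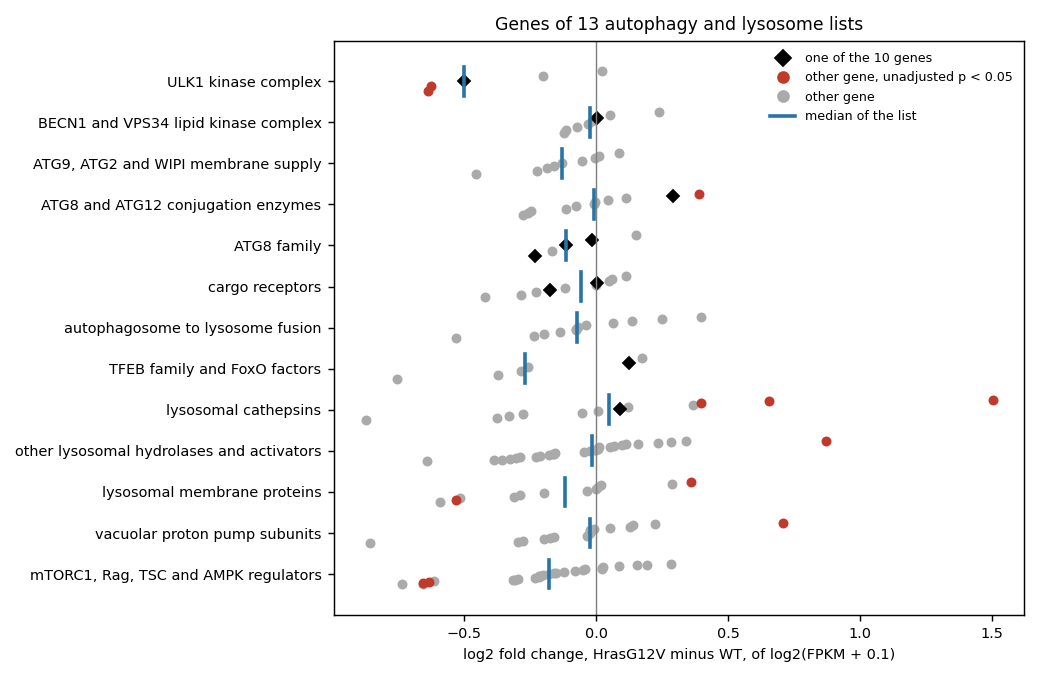
Log2 fold change, HrasG12V minus WT, of log2(FPKM + 0.1) (horizontal axis) for the genes of 13 autophagy and lysosome lists (vertical axis), with black diamonds for the 10 genes, red points for other genes with an unadjusted limma p below 0.05, and blue bars for list medians. The diamonds lie between -0.50 and 0.29, and the 12 red points lie on both sides, from Prkab2 at -0.65 to Ctss, the point farthest to the right.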

How the data were processed

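RNAseq was carried out on gastrocnemius muscle with a stranded mRNA kit and single-end reads. The authors mapped reads with TopHat and deposited FPKM per gene symbol from Cufflinks and Cuffnorm. The build was GRCm38/mm10 by the submitters' processing notes. Versions, annotation and strand setting were not found given in the sources used here. By GENCODE vM21, 6 of the 10 genes overlap a gene on the other strand in part, and reads from such pairs may not have been told apart. Cuffnorm scales libraries to each other, so FPKM totals are not depths. Steps of whole reads were sought in values under 0.3 FPKM, but the fullest 1% interval of ratios held 0.76% to 4.35% of genes in pairs of libraries. No reads were recovered. The methods state a nominal depth alone, so how many reads lie behind each value is unknown.

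From the deposited FPKM, log2(FPKM + 0.1) was computed for 13359 genes with a mean of at least 0.5 FPKM. Genotypes, 3 mice against 3, were compared in R 4.3.3 with the package limma, version 3.58.1, using its trend option and no covariate, and p-values were adjusted by Benjamini-Hochberg over all genes, with a limit of 0.05. The fold changes are on the log2(FPKM + 0.1) scale, which understates those of low genes. The p-values measure the spread between these mice, which are littermates. Genes were named by a rule: the 10 genes, the highest and lowest of each list, the ATG8 family and cathepsins, genes with an adjusted p below 0.05, and genes without overlap and with an unadjusted p below 0.05. Atg13, Mylpf, Myh1, Myh4, Tnnt3, Atp2a1, Optn, Smpd1 and the promoters shown were chosen after values were seen. The members, lists and tests were chosen with earlier results of these data known.

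The alternatives were pseudocounts of 1 and 0.01, no filter, a filter at 1 FPKM, quantile normalization, median centring, equal totals, no or robust moderation, array weights and leaving out each mouse. The counts of larger SDs and of lowest or highest mice were added after seeing the data. Promoters came from RefSeq (GRCm38.p6) and gene positions from GENCODE vM21. Figures were drawn with matplotlib 3.10.9 under Python 3.11.15, and tables with pandas 2.3.3 and numpy 2.4.6.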

Additional observations from a re-analysis of the deposited data

How the results depend on the processing

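Fold changes of single genes turned sign within their intervals. Gabarapl1 was 0.0040 with quantile normalization. With equal total FPKM, Sqstm1 was -0.0099 and Becn1 -0.0084. With array weights, Sqstm1 was -0.27, Becn1 -0.064 and Tfeb -0.16. Leaving out 1 mouse at a time gave ranges of -0.88 to 0.34 for Map1lc3a, -0.33 to 0.25 for Map1lc3b, -0.80 to -0.25 for Ulk1, 0.16 to 0.42 for Atg7, -0.19 to 0.28 for Gabarapl1, -0.20 to 0.41 for Sqstm1, -0.64 to 0.29 for Bnip3, -0.11 to 0.10 for Becn1, -0.13 to 0.24 for Ctsl and -0.18 to 0.46 for Tfeb. The adjusted count stayed at 0 of 10 in all 16 alternatives. The unadjusted count was 1 with array weights (Map1lc3a, -0.80), where 22.8% of all genes had one, and 0 to 1 without a mouse. It was 1 without mouse 2276 (Map1lc3a; 29.8% of all genes) and without mouse 2279 (Ulk1; 11.5%). The count without overlap was 0 to 4, with 4 when mouse 2278 was left out. Of the wider lists, 3 genes (1.97%) had an unadjusted p below 0.05 with equal totals, against 5.33% of all genes. There were 26 (17.1%) with array weights, against 22.8%, and 3 to 31 without a mouse, the 31 (20.4%) without mouse 2276, against 29.8%. Without that mouse 5 passed the adjusted limit (Ctss, Tcirg1, Ctsd, Optn and Smpd1), beside 9.66% of all genes, and with array weights Ctss did, beside 4.28%. Lowest in mouse 2278 were 4 genes with equal totals, and the SD was larger in HrasG12V for 7 to 10 genes without a mouse. Why these counts moved was not tested. No paired analysis was possible because the labels record no litter or other pairing of the littermates, and the mouse numbers are not shared between genotypes. The reads behind each FPKM are unknown, so the precision is known only from the spread between 3 mice per genotype.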
